A study of Homo sapiens with 12 samples.

Results

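The genes described here are 44 genes that the androgen receptor is known to switch on in prostate cells. They were followed across 12 bead arrays of 22Rv1, a human prostate carcinoma line that expresses the androgen receptor. A gene entered through the array annotation: its probes carried its symbol, and a probe was kept if its detection p-value, the software's comparison with negative control beads, was below 0.01 on at least 2 of the 12 arrays. That left 54 of 73 probes, and 36 of the 44 genes, out of 19172 kept probes of 47323 and 11164 genes in the whole series. KLK3, STEAP4, TRPM8, GREB1 and ALDH1A3 had no kept probe, and ACSL3, SORD and HOMER2 are not analysed here because no probe carried their symbol. Of the 36 kept genes, 30 were detected on all 12 arrays at the probe used.

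There were 6 groups of 2 arrays. Each subline carried a hairpin that doxycycline switches on, labelled HNF4Gsh1 (hairpin 1) or HNF4Gsh2 (hairpin 2), both against the nuclear receptor HNF4G, or shScr (scrambled). The groups were hairpin 1 with doxycycline for 3 days, hairpin 1 without it, hairpin 2 with and without it, and scrambled with and without it. All grew in RPMI medium with 10% fetal bovine serum, and per the design text the groups without doxycycline received vehicle. The treatment field of the labels names doxycycline for every sample, so the groups were taken from the sample names. Each hairpin was 1 subline, so a difference between sublines without doxycycline cannot be told apart from any other difference between those cell populations. The labels do not say that the replicates were separate cultures, and the p-values therefore cover the spread of the arrays in hand, possibly a technical one. In such bulk RNA, fewer cells expressing a gene and less RNA per cell cannot be told apart.

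The androgen receptor is a nuclear receptor that moves to the nucleus when it binds androgen and activates genes through androgen response elements, often helped by the factors FOXA1 and HOXB13. In the prostate its activated genes encode secreted kallikrein proteases, surface proteins, metabolic enzymes and regulators that feed back on signalling. 22Rv1 cells also make receptor variants that lack the ligand-binding domain, so part of this programme can run without hormone.

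The best known of these promoters belong to the neighbouring kallikrein genes KLK2 and KLK3, and they are shown because each holds an element close to the receptor's consensus. The promoter of SLC45A3 is shown because SLC45A3 differed most clearly between the sublines. Each sequence is the 250 bases before the gene's start, read 5′ to 3′ on the gene's strand, from RefSeq on GRCh38.p14. Capitals mark a match to a loose form of the androgen response element, GNACA and GTNC with 4 bases of any kind between them, whose letters were chosen to include the known KLK3 element.
KLK2, chr19:50873189-50873438, plus strand: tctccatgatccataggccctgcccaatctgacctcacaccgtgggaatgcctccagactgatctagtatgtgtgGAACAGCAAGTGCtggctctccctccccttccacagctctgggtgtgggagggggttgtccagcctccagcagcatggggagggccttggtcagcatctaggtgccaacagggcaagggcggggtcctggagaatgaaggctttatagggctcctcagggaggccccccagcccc
KLK3, chr19:50854665-50854914, plus strand: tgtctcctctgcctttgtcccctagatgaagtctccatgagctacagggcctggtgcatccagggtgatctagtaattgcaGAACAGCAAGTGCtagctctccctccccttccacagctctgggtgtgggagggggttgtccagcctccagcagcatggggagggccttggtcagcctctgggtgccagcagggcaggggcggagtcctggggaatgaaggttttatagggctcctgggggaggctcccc
SLC45A3, chr1:205680510-205680759, minus strand: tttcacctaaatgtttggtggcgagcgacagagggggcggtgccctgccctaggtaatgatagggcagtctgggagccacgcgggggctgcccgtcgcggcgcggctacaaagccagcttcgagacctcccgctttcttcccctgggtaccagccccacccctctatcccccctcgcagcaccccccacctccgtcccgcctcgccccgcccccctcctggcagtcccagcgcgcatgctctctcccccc
KLK2 and KLK3 carried the same letters, GAACAGCAAGTGC, from 175 to 163 bases before the start in KLK2 and from 169 to 157 in KLK3. RefSeq's table held 35 of the 44 promoters, and the loose element occurred, on either strand, in 3 of them (8.57%; KLK2, KLK3 and CENPN), against 1.76% of 27305 promoters. The exact element, AGAACA and TGTTCT with 3 bases of any kind between them, occurred in 0 of the 35 and in 0.00366% of all, and the HNF4 core CAAAGTCCA, also searched on both strands, in 0 of the 35 and in 0.293% of all. The loose element was written to include that of KLK3, and KLK2 carries the same letters, so its share among the members is no test of enrichment. These matches describe the letters of 1 short window only.

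Median intensity ran from 92.5 to 108 per array, and 14959 to 18293 probes were detected, fewest on scrambled, doxycycline, replicate 1. Values below are log2 intensities after background correction and quantile normalization, compared within a probe and never between genes. With 2 arrays in a group, precision is limited throughout. The targeted gene checked the labels: HNF4G was not detected on any hairpin array with doxycycline and was detected on all 8 others. It fell at least 2.08-fold with hairpin 1 and at least 2.48-fold with hairpin 2 (limma adjusted p = 8.01e-04 and 8.50e-05). In scrambled cells HNF4G was at 5.81 and 6.19 with doxycycline and at 6.35 and 6.13 without it. Of the luminal markers, KRT8, KRT18, HOXB13 and EPCAM were detected on all 12 arrays and MSMB on 0. Of the basal markers, KRT5, KRT14 and ITGB4 were detected on 0, and of 7 neuroendocrine markers 3 (CHGB, SYP and ENO2) were detected on all 12.

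Across the 6 groups, 8 of the 36 kept genes differed in limma's F-test (adjusted p under 0.05 over 11164 genes, where 6.33% of all genes passed). These were SLC45A3, FOLH1, ELL2, TMPRSS2, GNMT, PLPP1, ADAMTS1 and INPP4B. They include membrane proteins of luminal cells (SLC45A3, FOLH1 and TMPRSS2), phosphatases (PLPP1 and INPP4B) and a regulator of transcript elongation (ELL2). The flattest were SPDEF, an ETS factor of luminal epithelium, TPD52, TRPM4 and PMEPA1, whose group means spanned 0.25, 0.25, 0.25 and 0.28 log2 units. The spans of FOLH1 and SLC45A3 were 1.69 and 1.41.

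**Figure D1:**
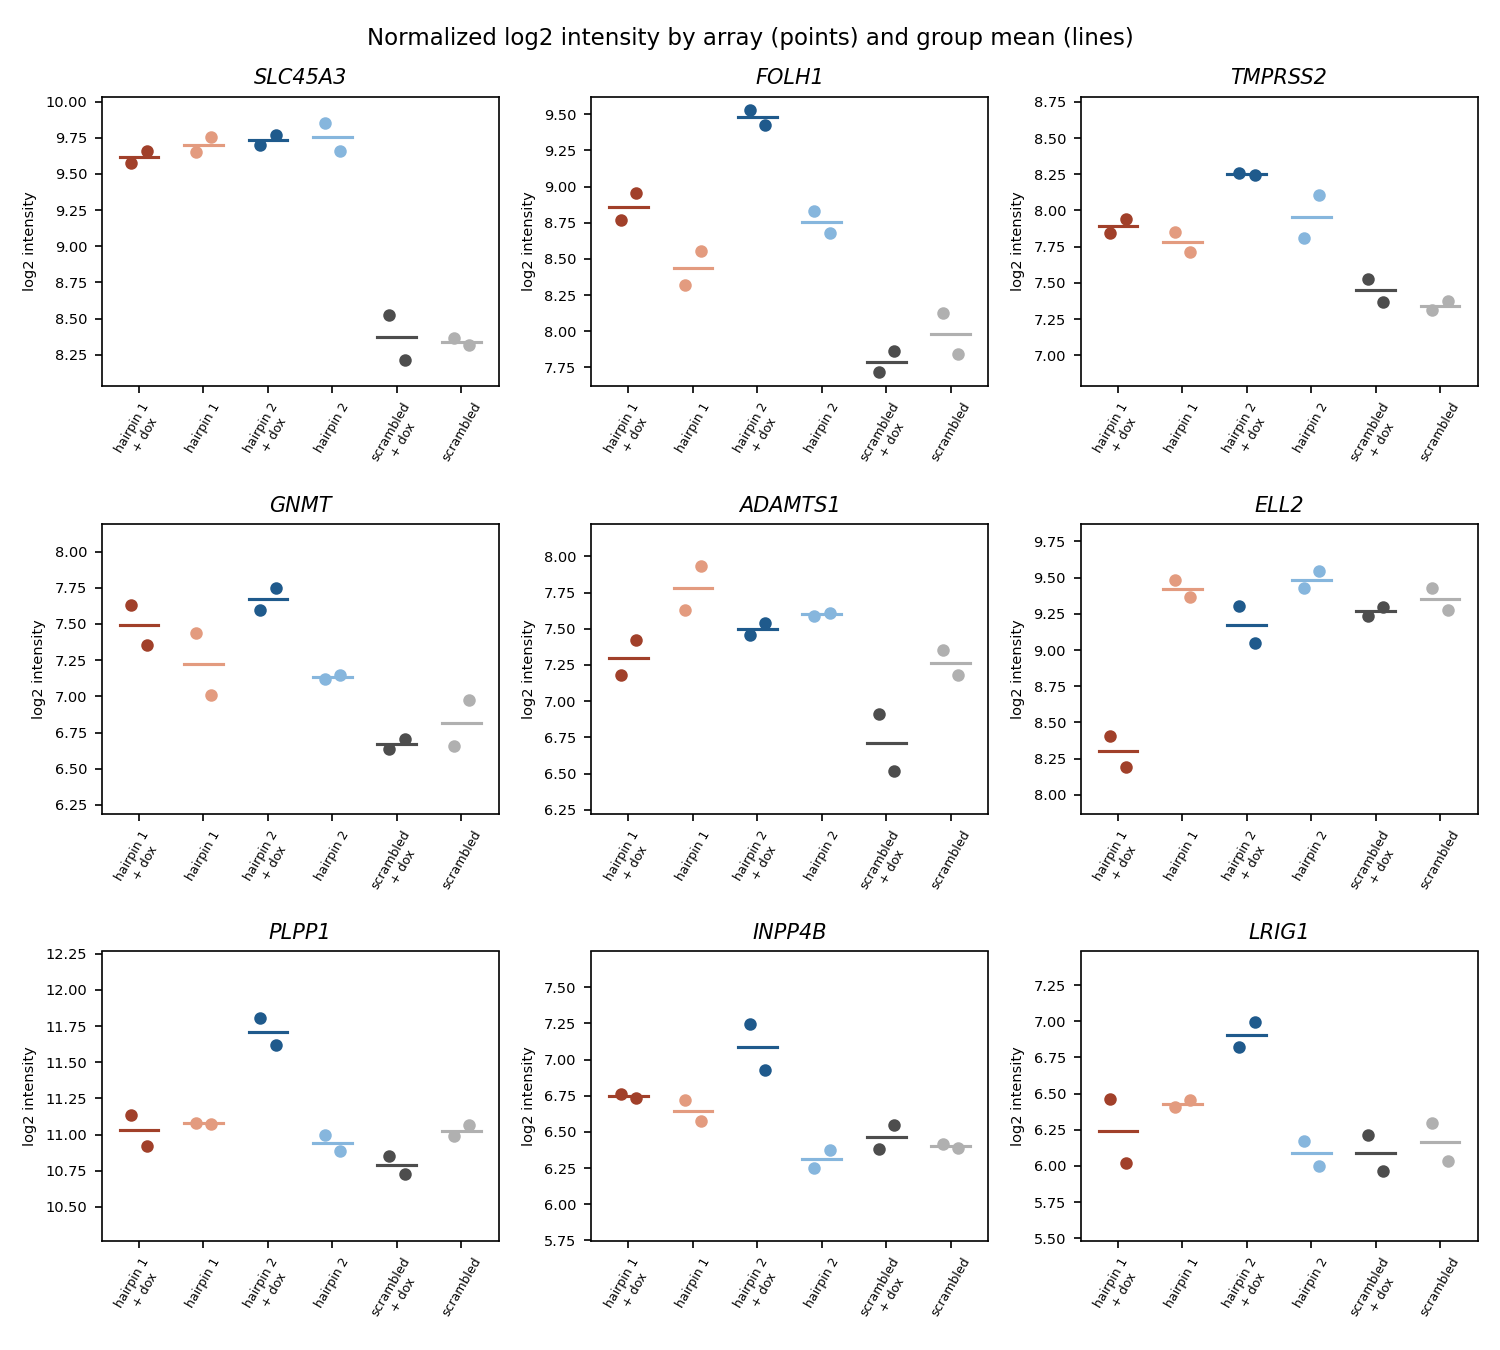
Normalized log2 intensity of 9 androgen receptor activated genes on each of the 12 arrays (points), with the mean of each group of 2 (lines). SLC45A3 is higher on all 8 hairpin arrays than on the 4 scrambled ones, ELL2 is low only in hairpin 1 cells with doxycycline, and FOLH1, PLPP1, INPP4B and LRIG1 are highest in hairpin 2 cells with doxycycline.

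Without doxycycline, the hairpin sublines already differed from the scrambled subline at SLC45A3, which encodes prostein, a membrane protein of the sugar transporter family that is abundant in prostate epithelium. SLC45A3 was at 9.65 and 9.75 with hairpin 1, at 9.85 and 9.65 with hairpin 2, and at 8.36 and 8.31 in the scrambled subline. The 4 hairpin arrays lay far above both scrambled arrays. The difference was 1.36 ± 0.16 (log2, SE; 2.57-fold) for hairpin 1 and 1.41 ± 0.16 (2.66-fold) for hairpin 2, with limma adjusted p = 6.18e-04 and 5.08e-04. The gap was also there with doxycycline, where the levels were 9.58 and 9.65 in hairpin 1 cells, 9.70 and 9.77 in hairpin 2 cells and 8.53 and 8.22 in scrambled cells. Within each subline SLC45A3 with doxycycline differed from SLC45A3 without it by -0.09 ± 0.16 with hairpin 1, -0.02 ± 0.16 with hairpin 2 and 0.03 ± 0.16 in the scrambled subline. Both of these comparisons without doxycycline use the same 2 scrambled arrays. SLC45A3 was the only one of the 36 genes past the threshold in either comparison, and 11 of 36 had an unadjusted p under 0.05 in each, against 10.1% of all genes for hairpin 1 and 11.1% for hairpin 2. Over all genes, 0.627% were called for hairpin 1 (0.242% higher, 0.385% lower) and 0.484% for hairpin 2 (0.170% higher, 0.314% lower). Between the hairpin 1 and hairpin 2 sublines 0 of the 36 passed (limma; 0.00896% of all genes; 0 of 36 at an unadjusted p under 0.05).

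Many of the other genes had higher means in the hairpin sublines without passing the test. The mean was higher in the hairpin 1 subline than in the scrambled subline for 31 of the 36 kept genes (50.9% of all genes). The median difference was 0.24 log2 units, against 0.00 over all genes. In the hairpin 2 subline the mean was higher for 27 of the 36 (51.1% of all genes), with a median difference of 0.28 against 0.01 over all genes. For 20 genes both hairpin 1 arrays lay above both scrambled arrays, which held for 18.9% of all genes, and for 4 both lay below (19.4% of all genes). For hairpin 2 these counts were 18 (21.0% of all genes) and 4 (19.8%). Of the 30 genes detected on all 12 arrays, the mean was higher for 25 in the hairpin 1 subline and for 22 in the hairpin 2 subline. Of all genes detected on all 12 arrays it was higher for 50.3% and 50.2%. The members were chosen with earlier results of these data known, so these counts are a description and no test. The list as a whole was not tested, and both comparisons rest on the same pair of scrambled arrays. Probe detection moved partly with these levels: 16392 and 16917 probes were detected on the hairpin 1 arrays, 18293 and 17346 on the hairpin 2 arrays, and 16497 and 15783 on the scrambled arrays. Of 8 stromal markers 4 were kept, and 3 of these had higher means in each hairpin subline and 1, ACTA2, lower ones. ACTA2 was at 6.59 and 6.64 with hairpin 1, 6.22 and 6.44 with hairpin 2 and 6.45 and 6.96 with scrambled. The median differences of the 4 were 0.35 for hairpin 1 and 0.46 for hairpin 2, with 0 of 4 past the threshold in limma. At an unadjusted p under 0.05 there were 1 and 3 of the 4, against 10.1% and 11.1% of all genes. Their summed normalized intensity, most of it from vimentin (VIM), was 919 to 958 in the hairpin 1 subline, 923 to 979 in the hairpin 2 subline and 685 to 742 in the scrambled subline. VIM was at 9.42 and 9.53, at 9.58 and 9.41, and at 8.96 and 9.01 in these sublines. DCN was detected on all 8 hairpin arrays and on 0 of 4 scrambled arrays, and the collagens COL1A1, COL1A2 and COL3A1 and the receptor PDGFRB on 0 of 12. The part of detection and of these markers in the higher means was not tested.

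**Figure D2:**
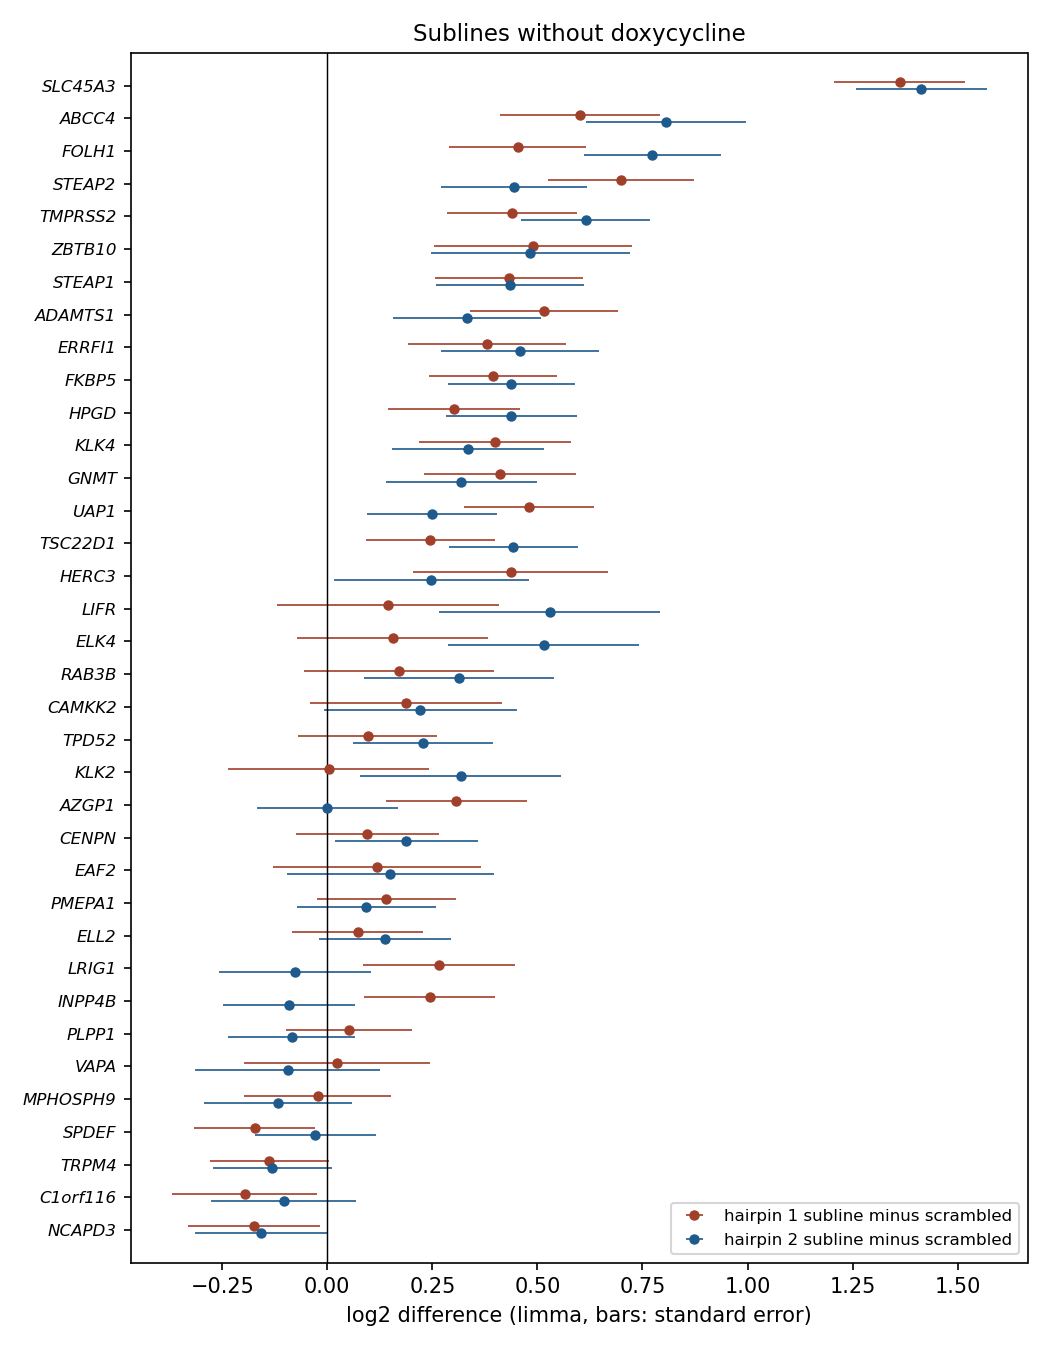
Log2 difference of each hairpin subline from the scrambled subline, all without doxycycline, for the 36 kept genes (points, limma estimates; bars, standard errors). SLC45A3 stands at 1.36 and 1.41, and most of the other genes lie to the right of 0 and did not pass the test.

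The transporters and channels other than SLC45A3 also tended to the hairpin sublines without doxycycline, apart from TRPM4. ABCC4, an efflux pump, was at 6.16 and 5.92 with hairpin 1, 6.29 and 6.20 with hairpin 2 and 5.22 and 5.66 with the scrambled hairpin, so that the groups did not overlap. Its differences of 0.60 ± 0.19 and 0.81 ± 0.19 had limma adjusted p = 0.240 and 0.0976. STEAP2, a metalloreductase, differed by 0.70 ± 0.17 (adjusted p = 0.0961) and 0.45 ± 0.17 (0.367) in limma, and its relative STEAP1 by 0.43 ± 0.18 in each comparison (0.402 and 0.378). TRPM4, a calcium-activated cation channel, had differences of -0.14 and -0.13.

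Among the proteases and surface proteins 0 passed without doxycycline in limma, although FOLH1, TMPRSS2 and KLK4 did not overlap the scrambled arrays. FOLH1, the prostate-specific membrane antigen, was at 8.32 and 8.55 with hairpin 1, 8.83 and 8.68 with hairpin 2 and 8.12 and 7.84 with the scrambled hairpin. The groups did not overlap, but neither the 0.45 ± 0.16 of hairpin 1 (limma adjusted p = 0.342) nor the 0.77 ± 0.16 of hairpin 2 (0.0568) passed. TMPRSS2, a surface serine protease whose promoter is often fused to ETS genes in prostate cancer, was at 7.85 and 7.72 with hairpin 1, 7.81 and 8.11 with hairpin 2 and 7.31 and 7.37 with the scrambled hairpin. Its differences of 0.44 ± 0.15 and 0.61 ± 0.15 did not pass (limma adjusted p = 0.320 and 0.125). KLK4, a secreted kallikrein, was at 13.10 and 13.10 with hairpin 1, 12.98 and 13.10 with hairpin 2 and 12.97 and 12.43 with the scrambled hairpin. The scrambled arrays differed by more from each other than the hairpin arrays did, and the differences were 0.40 ± 0.18 and 0.34 ± 0.18 (limma adjusted p = 0.471 and 0.527).

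FKBP5, a co-chaperone that binds steroid receptors, was at 12.32 and 12.30 with hairpin 1, 12.42 and 12.28 with hairpin 2 and 11.83 and 11.99 with the scrambled hairpin. All 4 hairpin arrays lay above both scrambled ones, by 0.39 ± 0.15 and 0.44 ± 0.15 (limma adjusted p = 0.368 and 0.306). GNMT, which methylates glycine and so uses up S-adenosylmethionine, was at 7.44 and 7.01 with hairpin 1, 7.12 and 7.15 with hairpin 2 and 6.66 and 6.97 with the scrambled hairpin. ADAMTS1, a secreted metalloprotease, was at 7.63 and 7.93, at 7.59 and 7.61, and at 7.35 and 7.18 in the hairpin 1, hairpin 2 and scrambled sublines. Neither GNMT (0.41 and 0.32) nor ADAMTS1 (0.52 and 0.33) passed in these comparisons, although both passed the test across 6 groups. The 8 genes of trafficking, mitosis and other roles were closest to 0, with medians of 0.06 and 0.05.

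Doxycycline was then compared with no doxycycline inside each subline. With hairpin 1, 1 of the 36 genes fell and 0 rose in limma, where 1.06% of all genes were called, 0.833% lower and 0.224% higher. With hairpin 2, 4 rose and 0 fell, where 2.07% of all genes were called, 0.645% higher and 1.42% lower. In the scrambled subline 0 of 36 passed (0.0269% of all genes), while 7 of 36 had an unadjusted p under 0.05, against 9.64% of all genes. The unadjusted counts were 6 of 36 with hairpin 1 (12.3% of all genes) and 9 of 36 with hairpin 2 (15.4%). The median difference of the 36 was -0.05 with hairpin 1, 0.05 with hairpin 2 and 0.03 in the scrambled subline, against 0.01, 0.01 and -0.01 over all genes. Both arrays with doxycycline lay above both without it for 6 genes with hairpin 1 (23.3% of all genes), 15 with hairpin 2 (24.6%) and 8 in the scrambled subline (18.2%). They lay below for 10 (20.5%), 10 (23.6%) and 6 (20.1%). Summed stromal markers with doxycycline were 967 to 1022 with hairpin 1, 1308 to 1347 with hairpin 2 and 538 to 594 with scrambled. In limma 0 of the 4 passed in any subline, with 0, 2 and 2 at an unadjusted p under 0.05. Over all genes 12.3%, 15.4% and 9.64% were under that limit. The part of the stromal markers in the calls below was not tested.

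**Figure D3:**
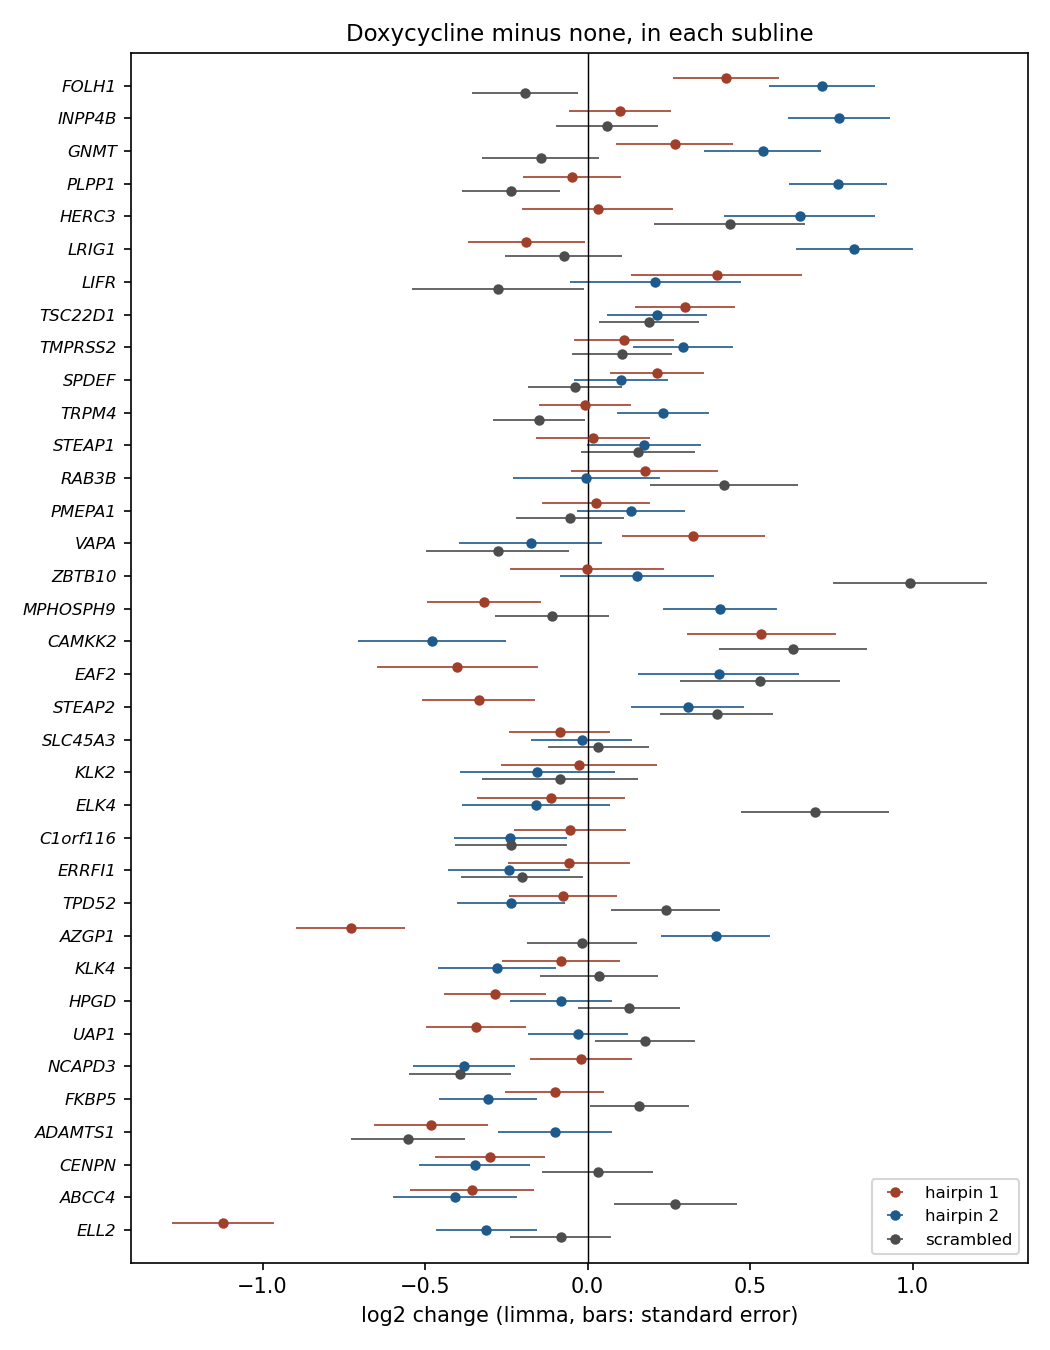
Log2 difference with doxycycline in each subline for the 36 kept genes (points, limma estimates; bars, standard errors), ordered by the mean of the hairpin differences. ELL2 with hairpin 1 (-1.12) and FOLH1, PLPP1, INPP4B and LRIG1 with hairpin 2 (0.72 to 0.82) passed the test, and the other points scatter on both sides of 0.

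ELL2, a subunit of the complex that speeds elongation by RNA polymerase II, fell with hairpin 1. Its level was 8.40 and 8.20 in hairpin 1 cells with doxycycline, against 9.48 and 9.36 without it. In hairpin 2 cells it was 9.30 and 9.05 with doxycycline and 9.43 and 9.55 without, and in scrambled cells 9.24 and 9.30 with and 9.43 and 9.27 without. Only the hairpin 1 arrays with doxycycline stood below 9. The difference was -1.12 ± 0.16 with hairpin 1 (2.18-fold lower, limma adjusted p = 0.00226), -0.31 ± 0.16 with hairpin 2 (0.359) and -0.08 ± 0.16 in the scrambled subline (0.901). EAF2, which binds ELL proteins, had differences of -0.40 with hairpin 1, 0.40 with hairpin 2 and 0.53 in the scrambled subline, none past the threshold. TSC22D1, SPDEF, ELK4 and ZBTB10 also gave 0 calls in limma in the 3 sublines, and of these ELK4 and ZBTB10 had an unadjusted p under 0.05, both in the scrambled subline. ZBTB10, a zinc finger protein, had its largest difference in the scrambled subline, at 7.88 and 7.96 with doxycycline against 6.55 and 7.31 without (0.99 ± 0.24, limma adjusted p = 0.218).

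FOLH1 rose with hairpin 2. It was at 9.53 and 9.43 with doxycycline, against 8.83 and 8.68 without it, a change of 0.72 ± 0.16 (1.65-fold, limma adjusted p = 0.0367). In hairpin 1 cells it was at 8.77 and 8.95 with doxycycline and 8.32 and 8.55 without (0.42 ± 0.16, adjusted p = 0.293 in limma), and in scrambled cells at 7.72 and 7.86 with and 8.12 and 7.84 without. The groups did not overlap in either hairpin subline. The second FOLH1 probe, also detected on all 12 arrays, rose by 1.17 ± 0.17 with hairpin 2 (limma adjusted p = 0.00553 over all kept probes) and had a difference of 0.42 ± 0.17 with hairpin 1 (0.389). The FOLH1 call at the brighter probe was lost without either hairpin 1 array with doxycycline (adjusted p = 0.0501 each) and without any of the 4 hairpin 2 arrays (0.141 to 0.222).

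The other proteases did not pass with either hairpin. TMPRSS2 was at 7.85 and 7.94 in hairpin 1 cells with doxycycline and 8.26 and 8.24 in hairpin 2 cells with it, against 7.53 and 7.37 in scrambled cells with it. Against the same sublines without doxycycline it differed by 0.11 ± 0.15, 0.29 ± 0.15 and 0.11 ± 0.15. All 4 hairpin arrays with doxycycline lay above both scrambled arrays with it. KLK4 was at 12.88 and 13.16 with hairpin 1 and doxycycline, 12.74 and 12.78 with hairpin 2 and doxycycline and 12.70 and 12.78 with scrambled and doxycycline, and its differences from no doxycycline were -0.08, -0.28 and 0.04, each ± 0.18. KLK2 was close to background: it was detected on 9 of 12 arrays. KLK2 was at 5.36 and 5.18 in hairpin 1 cells with doxycycline, 5.66 and 4.94 without, 5.69 and 5.22 in hairpin 2 cells with it and 5.79 and 5.43 without. In scrambled cells it was at 5.08 and 5.34 with doxycycline and 5.45 and 5.13 without. The KLK2 groups overlapped in every subline. KLK3, which encodes prostate-specific antigen, had 1 probe, detected on 1 of 12 arrays.

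Among the enzymes, PLPP1, which removes phosphate from bioactive lipids, rose with hairpin 2. It was at 11.80 and 11.62 with doxycycline, against 10.998 and 10.89 without it (0.77 ± 0.15, 1.70-fold, limma adjusted p = 0.0187). Hairpin 1 cells were at 11.14 and 10.92 with doxycycline and 11.08 and 11.07 without, and scrambled cells at 10.86 and 10.73 with and 10.99 and 11.06 without. Only the hairpin 2 cells with doxycycline stood above the rest. The 2 other PLPP1 probes had differences of 0.85 ± 0.21 and 0.21 ± 0.19 with hairpin 2 and did not pass (limma adjusted p = 0.0736 and 0.671 over all kept probes). The PLPP1 call was lost without any of the 4 hairpin 2 arrays (0.0692 to 0.176). GNMT was at 7.63 and 7.35 in hairpin 1 cells with doxycycline, 7.60 and 7.75 in hairpin 2 cells with it and 6.63 and 6.71 in scrambled cells with it. Its differences from no doxycycline were 0.27, 0.54 and -0.14, each ± 0.18. HPGD, which inactivates prostaglandins, and UAP1, which makes UDP-N-acetylglucosamine, had differences of -0.34 to 0.18 over the 3 sublines, and neither passed.

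Of 7 kept signalling genes, INPP4B and LRIG1 rose with hairpin 2. INPP4B, a phosphatase that removes a phosphate from phosphoinositides of the PI3-kinase pathway, was at 7.24 and 6.93 with doxycycline, against 6.25 and 6.38 without it (0.77 ± 0.16, 1.71-fold, limma adjusted p = 0.0225). In hairpin 1 cells it was at 6.76 and 6.73 with doxycycline and 6.72 and 6.57 without, and in scrambled cells at 6.38 and 6.55 with and 6.42 and 6.39 without. Without background correction the INPP4B difference was 0.44. Without hairpin 2, doxycycline, replicate 1 the adjusted p was 0.212, and without either hairpin 2 array lacking doxycycline it was 0.168 and 0.0893. LRIG1, a membrane protein that restrains growth factor receptors, was at 6.82 and 6.995 with doxycycline, against 6.17 and 6.003 without it (0.82 ± 0.18, 1.77-fold, limma adjusted p = 0.0338). Hairpin 1 cells were at 6.46 and 6.02 with doxycycline and 6.41 and 6.45 without, and scrambled cells at 6.22 and 5.97 with and 6.30 and 6.03 without. The 2 LRIG1 probes disagreed: the second, detected on 8 arrays, had a difference of 0.05 ± 0.19 with hairpin 2 (limma adjusted p = 0.941 over all kept probes). Without background correction the difference at the first probe was 0.43. The LRIG1 call was also lost without any of the 4 hairpin 2 arrays (0.125 to 0.209).

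The rest of this group gave no calls. FKBP5 was at 12.25 and 12.17 in hairpin 1 cells with doxycycline, 11.93 and 12.16 in hairpin 2 cells with it and 12.14 and 12.001 in scrambled cells with it, and its differences from no doxycycline were -0.10, -0.31 and 0.16, each ± 0.15. CAMKK2, a kinase that activates AMP-activated kinase, differed by 0.53 ± 0.23 with hairpin 1, -0.48 ± 0.23 with hairpin 2 and 0.63 ± 0.23 in the scrambled subline. The values of the hairpins had opposite signs, and that of hairpin 1 was close to the scrambled one. LIFR, a cytokine receptor subunit, was near background, at 5.14 and 5.72 in hairpin 1 cells with doxycycline, 4.59 and 5.46 without, 5.64 and 5.60 in hairpin 2 cells with it, 5.61 and 5.21 without, and 4.51 and 4.71 in scrambled cells with it, 4.71 and 5.05 without. It was detected on 6 arrays, all of them of hairpin sublines.

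The secreted proteins AZGP1 and ADAMTS1 and the transporters gave no calls with doxycycline. AZGP1, the zinc-alpha-2-glycoprotein, was at 7.13 and 7.24 in hairpin 1 cells with doxycycline and 7.88 and 7.95 without, and at 7.89 and 8.12 in hairpin 2 cells with it and 7.60 and 7.62 without. The groups did not overlap in either subline, and the signs were opposite: -0.73 ± 0.17 with hairpin 1 (limma adjusted p = 0.0549) and 0.39 ± 0.17 with hairpin 2 (0.273). ADAMTS1 was at 7.18 and 7.42 in hairpin 1 cells with doxycycline, 7.45 and 7.54 in hairpin 2 cells with it and 6.91 and 6.52 in scrambled cells with it. Its differences from no doxycycline were -0.48, -0.10 and -0.55, each ± 0.18, about as large in the scrambled subline as with hairpin 1. ABCC4 had differences of -0.35 and -0.41 with the hairpins and 0.27 in the scrambled subline, while its second probe, detected on 8 arrays, had -0.77 and -0.10 with hairpin 1 and hairpin 2. STEAP2 had differences of -0.33, 0.31 and 0.40.

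The 8 kept genes of trafficking, mitosis and other roles gave 0 calls with doxycycline in limma. CENPN, a kinetochore protein, had differences of -0.30 with hairpin 1, -0.35 with hairpin 2 and 0.03 in the scrambled subline. HERC3, a ubiquitin ligase, had 0.03, 0.65 and 0.44, and NCAPD3, a condensin subunit, -0.02, -0.38 and -0.39, and for both the scrambled value had the sign of hairpin 2. The 3 probes of C1orf116 disagreed in sign with hairpin 2, at -0.24, 0.27 and 0.17, and none passed.

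None of these doxycycline differences was shown to differ from the scrambled response. In limma, 0 of the 36 passed for the mean hairpin response minus the scrambled response (0.269% of all genes), 0 for hairpin 1 minus scrambled (0.314%) and 0 for hairpin 2 minus scrambled (0.322%). At an unadjusted p under 0.05 there were 8, 9 and 10 genes, against 12.2%, 10.9% and 12.9% of all genes. The smallest adjusted p-values were those of ELL2 for hairpin 1 (-1.04 ± 0.22, adjusted p = 0.0711) and PLPP1 for hairpin 2 (1.01 ± 0.21, 0.0654) in limma. FOLH1 differed by 0.92 ± 0.23 for hairpin 2 (adjusted p = 0.112) and by 0.77 ± 0.20 on the mean of the hairpins (0.150) in limma. With a variance prior that followed mean intensity, limma called FOLH1 for the mean, ELL2 for hairpin 1, and FOLH1, PLPP1 and CAMKK2 for hairpin 2. These 3 comparisons share the scrambled arrays.

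The hairpins were also set against each other. For the hairpin 1 response minus the hairpin 2 response 0 of the 36 passed in limma (0.206% of all genes), and 9 had an unadjusted p under 0.05 (10.98% of all genes). The largest differences were -1.12 ± 0.24 for AZGP1 (limma adjusted p = 0.0848), -1.01 ± 0.25 for LRIG1 (0.143), 1.01 ± 0.32 for CAMKK2 (0.238), -0.82 ± 0.21 for PLPP1 (0.153) and -0.81 ± 0.22 for ELL2 (0.168). The calls of ELL2 with hairpin 1 alone and of the 4 genes with hairpin 2 alone are therefore not shown to be particular to either hairpin. With the prior that followed mean intensity, AZGP1, PLPP1 and ELL2 were called.

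The average over the 36 kept genes summarises the levels. It was 8.38 and 8.43 in hairpin 1 cells with doxycycline, 8.45 and 8.50 without, 8.60 and 8.58 in hairpin 2 cells with it, 8.49 and 8.50 without, and 8.26 and 8.31 in scrambled cells with it, 8.23 and 8.20 without. All 8 hairpin arrays lay above the 4 scrambled arrays, while the average over all genes, which quantile normalization holds near 1 value, was 7.72 to 7.74. With doxycycline in both, 22 of the 36 means were higher in hairpin 1 cells than in scrambled cells (53.1% of all genes). In hairpin 2 cells 26 were higher (52.6% of all genes), and the median differences were 0.09 and 0.25. Both hairpin arrays lay above both scrambled arrays for 13 genes (25.9% of all genes) and for 19 genes (27.6% of all genes), and below for 6 (21.5%) and 6 (23.9%). These levels are a description with no test.

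**Figure D4:**
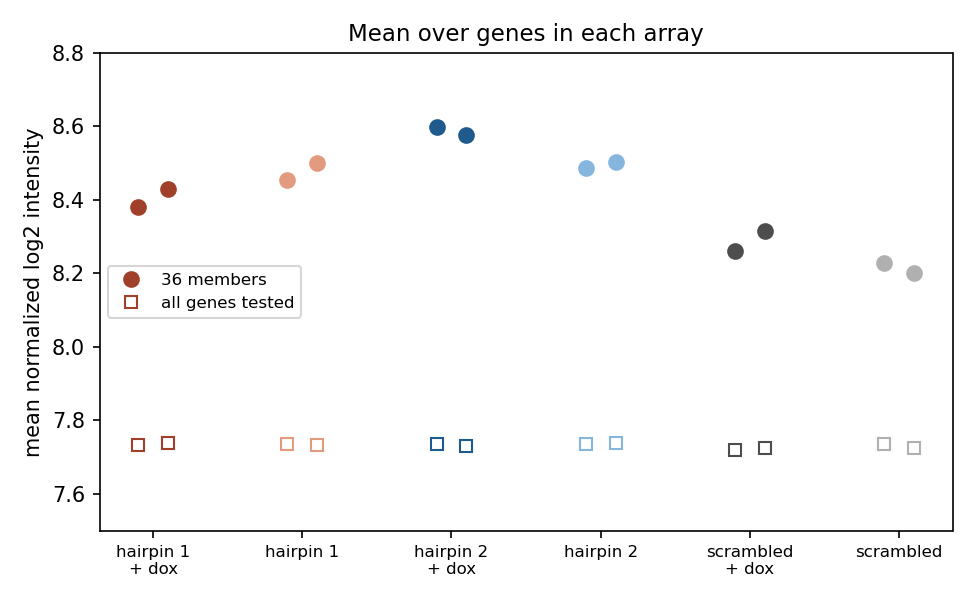
Mean normalized log2 intensity over the 36 kept genes (filled circles) and over all genes tested (open squares) on each array, by group. The hairpin arrays lie between 8.38 and 8.60 and the scrambled arrays between 8.20 and 8.31, and the mean of all genes, held near 1 value by the quantile normalization, is 7.72 to 7.74.

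Of 18 genes for the receptor and its cofactors, 13 were measured. FOXA1, a pioneer factor for the receptor, was between 11.96 and 12.42 on all 12 arrays, and HOXB13 between 8.68 and 9.62. FKBP4, a co-chaperone that assists steroid receptor folding, was the only one called. With doxycycline against none, limma called 0 of the 13 for hairpin 1 (1.06% of all genes) and 1 for hairpin 2. Over all genes 2.07% were called with hairpin 2, 1.42% lower. FKBP4 was at 8.94 and 8.94 in hairpin 2 cells with doxycycline, against 10.29 and 10.03 without it, and its level in the other 4 groups was 10.01 to 10.41. It fell by 1.22 ± 0.15 with hairpin 2 (limma adjusted p = 7.04e-04). Against the scrambled response the difference was -1.14 ± 0.22 (limma adjusted p = 0.0433), where 0.322% of all genes were called. This call was lost in 10 of the 12 fits that left out 1 array. It was also lost with median scaling (limma adjusted p = 0.307), with all kept probes in 1 fit (0.0688) and with the replicate number as a block (0.0657). In the scrambled subline with doxycycline against none 0 of the 13 passed in limma, with 1 at an unadjusted p under 0.05 (9.64% of all genes). Without doxycycline 0 of the 13 passed in limma, with 0 and 2 at an unadjusted p under 0.05 for hairpin 1 and hairpin 2 (10.1% and 11.1% of all genes).

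Of 9 genes that androgen represses 7 were measured, and 3 fell with each hairpin and 0 rose, with medians of -0.42 and -0.69. Over all genes 0.833% fell with hairpin 1 and 1.42% with hairpin 2. The 9 genes were chosen with earlier results of these data known, so these counts are a description and no test. In the scrambled subline 0 of the 7 passed in limma, with 0 at an unadjusted p under 0.05 (9.64% of all genes). Minus the scrambled response, limma called 1 of the 7 lower for each hairpin, AKR1C3, where 0.314% and 0.322% of all genes were called. For the mean of the hairpins it called 2 lower, AKR1C3 and UGT2B15 (0.269% of all genes). That call of UGT2B15 was kept in only 2 of 12 fits that left out 1 array and in 4 of 9 other settings. CDH2, a cadherin, had differences of 0.39 and 0.25 with the hairpins, and BCHE, a cholinesterase, was 0.81 and 0.94 higher in the hairpin sublines without doxycycline, none of these past the threshold. AKR1C3, which makes testosterone from androstenedione, was at 6.12 and 6.85 in hairpin 1 cells with doxycycline against 9.64 and 9.43 without, and at 6.96 and 7.22 in hairpin 2 cells with it against 9.27 and 9.65 without. The differences of AKR1C3 were -3.05 ± 0.23 and -2.37 ± 0.23 (log2; limma adjusted p = 3.29e-05 and 1.02e-04). In scrambled cells AKR1C3 was at 10.33 and 10.15 with doxycycline and 10.58 and 10.19 without. UGT2B15, which glucuronidates androgens, was below background on all 4 hairpin arrays with doxycycline, at least 1.41-fold and 1.53-fold below the arrays without it (limma adjusted p = 0.0143 and 0.00625). UGT2B17, of the same function, fell at least 2.03-fold with hairpin 1 and by 1.21 ± 0.24 with hairpin 2 (adjusted p = 0.00841 and 0.0179 in limma). The doxycycline calls of UGT2B15 were lost in 3 of 12 fits that left out 1 array for each hairpin, and those of UGT2B17 in 2 and 3. Without background correction the UGT2B15 differences were -0.33 and -0.36, against -0.98 and -1.06 with it, and both calls were lost (limma adjusted p = 0.155 and 0.0711), as they were on the deposited normalized values. UGT2B15 and UGT2B17 were also lower in the hairpin sublines without doxycycline, with differences of -1.67 and -1.60 and of -2.00 and -1.98 log2 units. A link between these differences and that of SLC45A3 was not tested.

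Of 23 genes of androgen synthesis and inactivation 14 were measured, and AKR1C3, UGT2B15 and UGT2B17 belong to this list too. With each hairpin 5 fell and 0 rose: AKR1C2, AKR1C3, AKR1C4, UGT2B15 and UGT2B17, against 0.833% and 1.42% of all genes lower. The list was chosen with earlier results of these data known, so its counts are a description and no test. In the scrambled subline 0 of the 14 passed in limma, with 2 at an unadjusted p under 0.05 (9.64% of all genes). Minus the scrambled response, limma called 2 lower for hairpin 1 (AKR1C3 and AKR1C4) and 1 for hairpin 2 (AKR1C3). Over all genes 0.314% and 0.322% were called. For the mean of the hairpins it called 3 (0.269% of all genes): AKR1C3, AKR1C4 and UGT2B15. The UGT2B15 call was kept in only 2 of 12 fits that left out 1 array and in 4 of the 9 other settings. Among others, it was lost with median scaling (limma adjusted p = 0.103) and without background correction (0.117). AKR1C2 also differed by -1.17 ± 0.19 with doxycycline in the scrambled subline (limma adjusted p = 0.0513), against -1.59 and -1.86 with the hairpins. Without doxycycline 5 of the 14 were called lower in each hairpin subline than in the scrambled one, against 0.385% and 0.314% of all genes. They were AKR1C2 (-2.31 and -2.00), AKR1C4 (-1.73 and -1.86), UGT2B11 (-1.46 and -1.23), UGT2B15 and UGT2B17. The calls of UGT2B11 were lost in 4 of 12 fits that left out 1 array, in each comparison, and that of hairpin 2 also without a filter on dim probes (adjusted p = 0.0881), with the mean of probes (0.0790) and with all kept probes in 1 limma fit (0.0537). SRD5A1, which makes dihydrotestosterone, had differences of 0.12 and -0.18 with the hairpins and passed in neither. Members of the AKR1C and UGT2B families are similar in sequence, so their probes may read more than 1 gene and these values are uncertain by gene.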

How the data were processed

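Total RNA of 12 samples of 22Rv1 sublines was hybridised to HumanHT-12 v4 bead arrays. The submitters' processing notes name BeadStudio and Partek, without versions. The deposited table holds an intensity per probe and a detection p-value per probe, per the file headers. A second deposited table holds the authors' normalized log2 values, whose median was 6.67 on each array and whose method is not given in the sources used here. They correlated at 0.998 to 1.000 with the log2 of the intensities. Differences from them nearly matched those from quantile-normalized log2 intensities without background correction, such as -0.954 for ELL2 with hairpin 1 in both. These settings are therefore not separate checks. Intensities were corrected by normexp from the detection p-values (offset 16), quantile-normalized and put on the log2 scale (neqc, limma 3.58.1, R 4.3.3). Probes with a detection p-value below 0.01 on at least 2 arrays were kept, and the probe of highest mean stood for a gene. One model over 6 groups was fitted by lmFit and eBayes, with Benjamini-Hochberg adjustment over 11164 genes and a threshold of 0.05. Second probes come from a fit over 19172 kept probes. Gene names come from the platform annotation, in which 30113 probes had 1 symbol, 8 several and 17202 none listed. The procedure was tested on simulated data. The members, gene lists, roles and motifs were chosen with earlier results of these data known. Genes past the threshold in any comparison, KLK2, KLK4, TMPRSS2 and FKBP5, and the 6 of widest spread between group means are given by array, and others are named as examples. Alternatives were the background correction, normalization, probe filter, probe rule, variance prior, replicate block and leaving out each array. Same-numbered arrays did not deviate together (15 pairs of groups, correlations -0.03 to 0.07), and the main fit used no pairing. These correlations cannot show whether same-numbered samples were handled together.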

Additional observations from a re-analysis of the deposited data

How the results depend on the processing

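The calls of SLC45A3 without doxycycline and of ELL2 with hairpin 1 held in all 12 fits that left out 1 array and in all 9 other settings. Among these settings, the deposited values and no background correction gave nearly the same differences, so they are not separate checks. With 1 array left out, the F-test called 4 to 9 members, hairpin 1 1 to 2, hairpin 2 0 to 4, each comparison without doxycycline against scrambled 1 to 1, and the other comparisons 0 to 0. The F-test called 8 members in the report, 14 with median scaling, 17 without background correction, 17 on the deposited normalized values and 16 with an intensity-dependent prior. For hairpin 1 with doxycycline, 2 members were called without background correction, on the deposited values, with detection on at least 6 arrays, with the mean of a gene's probes and with the intensity-dependent prior. For hairpin 2 with doxycycline, 4 became 2 with all probes in 1 fit and with the mean of probes, and 0 with median scaling, where the adjusted p-values of FOLH1, PLPP1, INPP4B and LRIG1 were 0.136, 0.103, 0.0866 and 0.0562. For the scrambled subline, 0 became 1 (ZBTB10) without background correction, on the deposited values and with the intensity-dependent prior. For the mean hairpin response minus scrambled, 0 became 2 (FOLH1, PLPP1) without background correction and on the deposited values, and 1 with the intensity-dependent prior. For hairpin 1 minus scrambled, 0 became 1 (ELL2) in these 3 settings. For hairpin 2 minus scrambled, 0 became 2 (FOLH1, PLPP1) without background correction and on the deposited values, 1 with detection on at least 6 arrays and with the mean of probes, and 3 with the intensity-dependent prior. For hairpin 1 minus hairpin 2, 0 became 3 (AZGP1, PLPP1, ELL2) in the same 3 settings. Without doxycycline, hairpin 1 against scrambled gave 2 (with STEAP2) in those 3, and hairpin 2 gave 2 (with FOLH1) in those 3, with detection on at least 6 arrays and with the mean of probes, and 3 with median scaling (with FOLH1 and ABCC4). With median scaling the median of all genes was 0.16 for hairpin 1 with doxycycline and -0.16 for scrambled, and without doxycycline it was -0.05 for hairpin 1 against scrambled and 0.13 for hairpin 2, against 0.01, -0.01, 0.00 and 0.01 in the report. The members' medians in the last 2 comparisons were then 0.18 and 0.40. Without background correction, and on the deposited values, they were 0.13 and 0.18, against 0.24 and 0.28 in the report, with 31 and 26 of 36 means higher. Leaving out 1 array gave members' medians of 0.18 to 0.32 and 0.20 to 0.36 in these 2 comparisons. Over all genes, the F-test called 707, 1139 with median scaling and 1383 without background correction, and hairpin 2 with doxycycline 231, 118 with median scaling and 497 without background correction. The replicate block left the members' counts at 8, 1, 4 and 0 for the F-test, hairpin 1, hairpin 2 and scrambled, and at 1 in each comparison without doxycycline against scrambled; of the calls named, it ended that of FKBP4 for hairpin 2 minus scrambled (adjusted p = 0.0657). The causes of these shifts were not tested. Signal over background limits KLK2, LIFR, ELK4, HERC3, VAPA and EAF2, which were not detected on every array.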
